A study of Mus musculus with 18 samples.

Results

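The expression of 10 genes that encode inhibitory receptors of myeloid cells, chosen by name, was followed in these samples: Lilrb4a, Sirpa, Siglec1, Siglece, Cd33, Cd22, Cd72, Cd300a, Clec12a and Cd200r1. They were 10 of 53465 annotated genes in the deposited count table, and because 2 entries of the table carry the symbol Lilrb4a, they made up 11 entries, all of which passed the filter on low counts in every comparison. Microglia and macrophages were sorted from the injured spinal cord of adult female C57BL/6J mice. All mice received a contusion at the level of the 11th thoracic vertebra and, 48 h later, a single intraspinal injection of PBS (mice 1, 2 and 3), IL-13 (mice 5, 6 and 7) or IL-4 (mice 8, 9 and 10), the cytokines being recombinant proteins. Cells were collected 24 h after the injection, and both cell types came from the same mouse, which gave 18 libraries in 6 groups of 3. The sort took CD11b+ F4/80+ cells, with microglia as CD45low and macrophages as CD45high. This gate was set to leave out neutrophils (F4/80-), and the methods state a high purity. No uninjured mouse was among these libraries, so that PBS is the level of an injured and injected cord.

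Inhibitory receptors raise the threshold for activation of a phagocyte. Most carry an immunoreceptor tyrosine-based inhibitory motif (ITIM) in the part of the protein that lies in the cytoplasm. After the receptor binds its ligand, Src family kinases such as Lyn phosphorylate the tyrosine of the motif, and the phosphatases SHP-1 (Ptpn6), SHP-2 (Ptpn11) or SHIP-1 (Inpp5d) are recruited and dampen nearby activating signals. Cd200r1 works without an ITIM and passes its signal through the adaptor Dok2. Several of these receptors read signals of healthy tissue: Sirpa binds CD47, Cd200r1 binds CD200, which neurons carry, and Cd33, Cd22, Siglece and Siglec1 bind sialic acids on cell surfaces.

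The tyrosine sites were read from the coding sequence of the longest protein-coding transcript of each gene (GENCODE M21, GRCm38), to show how the receptors that changed after a cytokine differ in the site through which they signal. The motif was a serine, isoleucine, valine or leucine, any residue, a tyrosine, any 2 residues, and an isoleucine, leucine or valine. It was counted in the last 160 residues, or in the first 60 residues of Cd72 and Clec12a, which have their N-terminal end in the cytoplasm. Cd22 held 4 matches there, Sirpa 3, Lilrb4a, Cd72 and Cd300a 2 each, Siglece and Clec12a 1 each, and Siglec1, Cd33 and Cd200r1 held 0. Anywhere in the protein, 49.1% of 21584 genes had a match, so that a match alone says little. Leaving aside Cd72 and Clec12a, which were not searched for it, only Cd200r1 had an asparagine-proline-any residue-tyrosine site in the last 160 residues. Anywhere in the protein, 3.61% of the 21584 genes had this pattern. The coding bases are given 5′ to 3′ on the strand of the gene, with the tyrosine codon in capitals, for Lilrb4a and for the genes that changed after a cytokine and held such a site, which leaves out Siglec1. Each lies within a single coding exon.
Cd72, chr4:43454498-43454515, minus strand: atcacgTATgcagacctg
Cd72, chr4:43454306-43454323, minus strand: ctcaccTACgagaatgtg
Clec12a, chr6:129350433-129350450, plus strand: attgttTATgcaaatctc
Cd200r1, chr16:44794239-44794250, plus strand: aatccactcTAT
Lilrb4a, chr10:51496021-51496038, plus strand: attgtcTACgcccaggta
Lilrb4a, chr10:51496194-51496211, plus strand: gtaaccTATgcccagttg

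Library totals lay between 35961305 and 45849829 counts. Levels are given as CPM, the counts of a gene relative to the total of its library, scaled by TMM factors over all 18 libraries, and comparisons between genes as CPM per kb of annotated exon. Differences are log2 fold changes ± SE from edgeR's quasi-likelihood test, with p-values adjusted by Benjamini-Hochberg over all genes tested and a threshold of 0.05. With PBS, the sum of 8 microglia markers was 5460 to 9790 CPM in microglia and 2620 to 3740 CPM in macrophages, and that of 7 markers of monocyte-derived macrophages 194 to 573 and 3290 to 6010 CPM. Across treatments these sums overlapped between the cell types. In microglia, the microglia sum was 2550 to 6560 CPM with IL-13 and 2380 to 4080 CPM with IL-4, and the monocyte-derived macrophage sum 4790 to 6990 and 11700 to 20900 CPM, the latter nearly all from Chil3 (11500 to 20600 CPM with IL-4). Ccr2, another gene of that list, had 10.3 to 28.3 CPM in PBS microglia, 22.8 to 63.1 CPM in IL-4 microglia and 180 to 250 CPM in PBS macrophages. Fibroblast and pericyte markers, 7 genes, summed to between 191 and 7190 CPM in microglia and to at most 9.17 CPM in macrophages. The microglia library of IL-13 mouse 6 stood apart, since it had the highest fibroblast sum, 7190 CPM, and the lowest sum of microglia markers among the IL-13 microglia, 2550 CPM. The macrophage library of the same mouse had the highest neutrophil sum, 3050 CPM of 9 markers. Where leaving out this mouse changed a call, both values are given. The B cell genes Ms4a1 and Pax5 had no count in any microglia library. In macrophages, the highest level of either gene was 0.361 CPM, for Ms4a1. The sum of all 6 B cell markers, nearly all of it from Ighm and Cd79b, was higher in microglia, with 36.4 to 124 CPM against 12.2 to 24.6 CPM in macrophages with PBS. The 2 of the 6 that were tested were both called higher in microglia, with a median log2 fold change of 1.93, in the same direction as Cd72. B cells also use Cd72 and Cd22. The gate would leave B cells out, and their part in these levels was not tested. In bulk samples like these, fewer cells of a type and less RNA per cell cannot be told apart.

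Per kb, Sirpa and the spanning Lilrb4a entry, described below, had the highest level in both cell types with PBS. Sirpa had 114 CPM per kb on average in microglia and 188 in macrophages, and the spanning entry 111 and 277. The ranges of this pair overlapped in microglia and not in macrophages. In microglia, Cd72 ranked next with 33.3 CPM per kb, above the range of Lilrb4a (25.3) and Cd33 (21.1), which overlapped each other. Cd300a, Siglece, Cd200r1, Siglec1 and Cd22 followed with 7.09 to 3.45 CPM per kb, each overlapping its neighbour, and Clec12a was below them with 1.18. In macrophages, Lilrb4a (89.2 CPM per kb) and Cd300a (32.7) ranked next without overlap, and Cd200r1 (21.6) overlapped Siglec1 (18.8). Cd33, Cd72, Clec12a, Cd22 and Siglece had 12.8 to 6.49 CPM per kb, each overlapping its neighbour. By rank among the 11 entries, Cd72 was at 3 in microglia and at 8 in macrophages, and Cd200r1 at 8 in microglia and at 5 in macrophages.

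**Figure D1:**
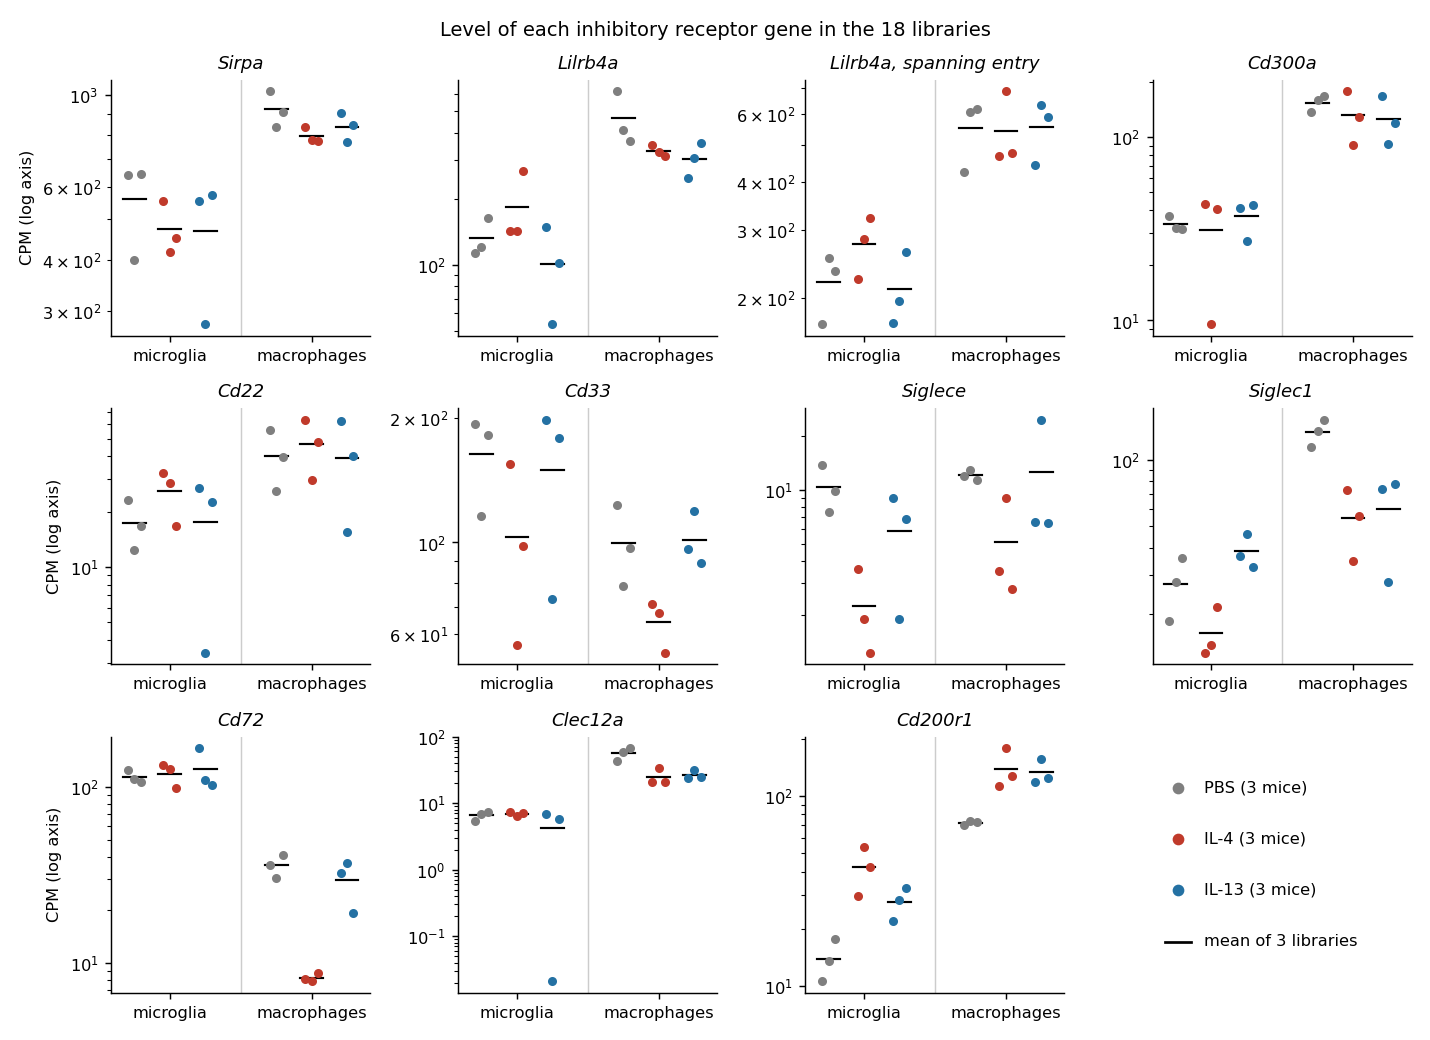
Level of the 11 entries in CPM (log axis, 1 point a library, line at the mean of 3) in microglia and macrophages with PBS, IL-4 or IL-13. In macrophages, the 3 IL-4 libraries of Cd72 lie between 7.88 and 8.73 CPM, below the 3 PBS libraries at 30.6 to 41.1 CPM, and Cd200r1 is higher with either cytokine than with PBS in both cell types.

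With PBS alone, most of these receptors were higher in macrophages than in microglia. Of the 11 entries, 8 were lower in microglia, 2 were higher and 1, Siglece, was not called. Among all 14715 genes tested, 40.9% were called, with a median log2 fold change of 0.04, and the median of the 11 entries was -1.36. Clec12a (ENSMUSG00000053063.11, chr6:129342691-129365303), a C-type lectin receptor that recognises uric acid crystals of dead cells, was 8.86-fold lower in microglia (log2 fold change -3.15 ± 0.22, adjusted p = 1.73e-05, edgeR). Its levels were 5.31, 6.81 and 7.45 CPM in the microglia of mice 1, 2 and 3, and 43.5, 59.8 and 66.9 CPM in their macrophages. Of 9 neutrophil markers, 7 were also lower in microglia (median log2 fold change -3.58). Their sum was 163 to 244 CPM in microglia and 1000 to 1610 CPM in macrophages, and their part in this difference was not tested. Lower in microglia too were Cd200r1, with a log2 fold change of -2.40 ± 0.20, Siglec1 (ENSMUSG00000027322.11, chr2:131069220-131086765), a sialic acid receptor without an ITIM that marks some tissue macrophages, with -2.31 ± 0.24, and Cd300a, which binds phosphatidylserine on dying cells, with -2.23 ± 0.13. Lilrb4a was 3.61-fold lower, Cd22 2.39-fold lower and Sirpa 1.68-fold lower. Sirpa, the receptor for the CD47 signal against being eaten, had 639, 400 and 644 CPM in microglia and 1020, 837 and 910 CPM in macrophages. The groups of each of these genes did not overlap.

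Cd72 and Cd33 went the other way. Cd72 (ENSMUSG00000028459.11, chr4:43446462-43454628), a C-type lectin with 2 ITIMs that binds semaphorin 4D, had 125, 111 and 107 CPM in PBS microglia and 36.1, 30.6 and 41.1 CPM in PBS macrophages. It was 3.10-fold higher in microglia (log2 fold change 1.63 ± 0.15, adjusted p = 6.69e-05, edgeR). Cd33, a sialic acid receptor whose human counterpart is a risk gene of Alzheimer's disease, had 194, 116 and 182 CPM in microglia and 123, 78.3 and 97.2 CPM in macrophages, so that the groups overlapped. Its difference was 0.68 ± 0.23, with an adjusted p of 0.0462 that rose to 0.0732 without mouse 1 and 0.254 without mouse 3. Without mouse 3, Cd22 was also no longer called (adjusted p = 0.0923), and without mouse 1 Sirpa had an adjusted p of 0.0504. In the model of all 18 libraries, Cd22 (adjusted p = 0.152) and Cd33 (0.156) were not called.

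**Figure D2:**
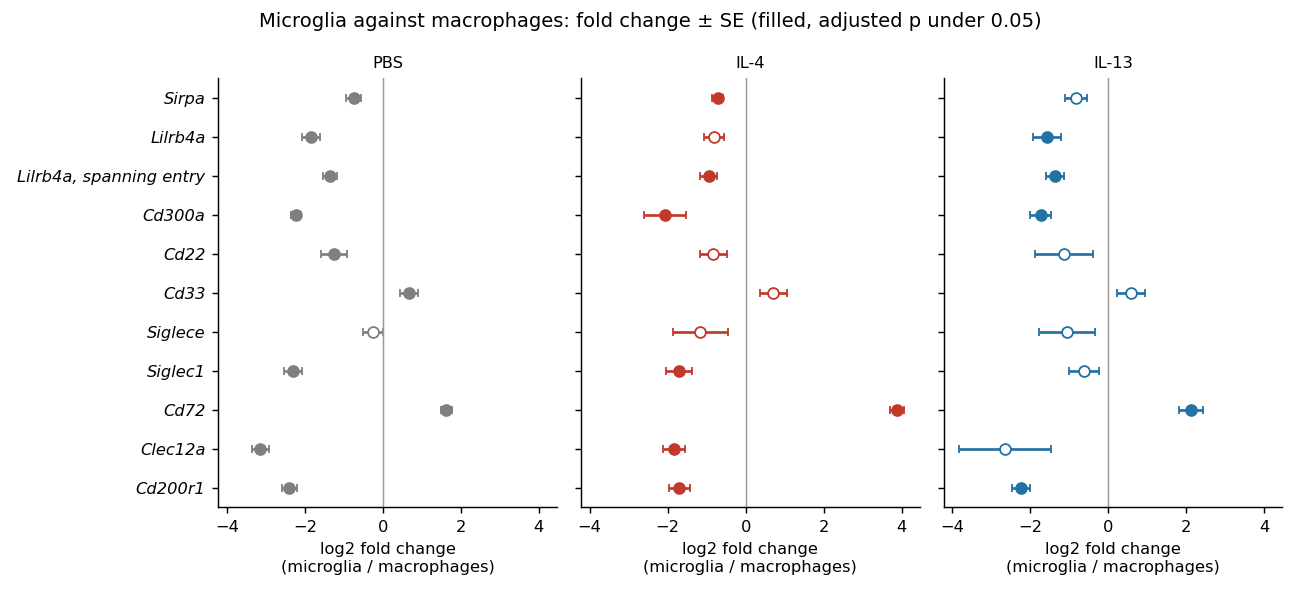
Difference between microglia and macrophages (log2 fold change ± SE, above 0 where microglia are higher) with PBS, IL-4 and IL-13, filled where the adjusted p is under 0.05. Cd72 lies to the right of 0 in all 3 panels, farthest with IL-4 at 3.88, and Cd200r1, Cd300a and the spanning Lilrb4a entry lie to the left and are filled in all 3.

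After IL-4, 7 of the 11 entries differed between the cell types, 1 higher and 6 lower in microglia, where 23.4% of all genes tested were called. Cd72 was 14.7-fold higher in microglia (3.88 ± 0.19, adjusted p = 3.09e-05). The log2 fold change was -2.07 ± 0.54 for Cd300a, -1.84 ± 0.29 for Clec12a, -1.70 ± 0.33 for Siglec1, -1.70 ± 0.27 for Cd200r1, -0.95 ± 0.21 for the spanning Lilrb4a entry and -0.72 ± 0.15 for Sirpa. Lilrb4a had a difference of -0.82 ± 0.26 and an adjusted p of 0.0578, or 0.0488 with the mouse as a block. Single mice mattered for several of these calls in edgeR. Without mouse 8, 4 entries and 15.5% of all genes were called, and the adjusted p was 0.12 for Cd300a, 0.0778 for Siglec1 and 0.0675 for the spanning Lilrb4a entry. Without mouse 10, it was 0.101 for Cd300a, 0.136 for Sirpa and 0.0546 for the spanning entry, while Lilrb4a itself had 0.0264. Without mouse 9, it was 0.0813 for Sirpa and 0.0802 for the spanning entry. In the model of all 18 libraries, Clec12a was not called (adjusted p = 0.0821). Cd300a had 43.5, 9.53 and 40.8 CPM in the microglia of mice 8, 9 and 10, with mouse 9 far below the others, and 178, 91.3 and 129 CPM in their macrophages.

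After IL-13, 5 of the 11 entries differed, 1 higher and 4 lower in microglia, where 26.7% of all genes were called. Cd72 was 4.34-fold higher in microglia (adjusted p = 0.00224, edgeR), and Cd200r1 4.74-fold, Cd300a 3.35-fold, Lilrb4a 2.98-fold and its spanning entry 2.61-fold lower. The calls changed most without mouse 6. Its microglia library held 1 count of Clec12a (0.0209 CPM), against 6.90 and 5.68 CPM in mice 5 and 7, and its levels of Cd22 (3.41 CPM), Cd33 (73 CPM), Siglece (1.89 CPM) and Sirpa (279 CPM) were the lowest of the 3. With all 3 mice, Clec12a had a difference of -2.65 ± 1.18 (adjusted p = 0.144). Without mouse 6, 10 of the 11 entries and 25.4% of all genes were called. Clec12a then differed by -1.96 (adjusted p = 0.00642), Siglec1 by -1.13 (0.00999, against 0.295 with the mouse), Sirpa by -0.64 (0.0311, against 0.0665) and Cd22 by -1.05 (0.0374, against 0.321). Cd33 was then higher in microglia, by 1.02 (0.00955, against 0.58 and 0.281 with the mouse). Without mouse 7, 3 entries and 8.44% of all genes were called, and Cd300a (adjusted p = 0.0555) and Lilrb4a (0.156) were not. With the mouse as a block, 7 entries and 25.4% of all genes were called, since Sirpa and Cd22 passed the threshold (adjusted p = 0.0252 for each). In the model of all 18 libraries, Sirpa (0.0121) and Clec12a (0.0181) did.

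The next question was how each cytokine moved these receptors within a cell type. The comparisons with PBS shared the PBS libraries, so that the IL-4 and IL-13 values are set side by side and not counted as separate evidence. In microglia, 1 of 11 entries was called after IL-4, where 2.22% of all genes were called, and 0 after IL-13, where 0.366% were. DESeq2's Wald test called 2 entries after IL-4 and 0 after IL-13, beside 9.21% and 2.54% of all genes. Without the adjustment, 3 entries had p under 0.05 after IL-4 and 1 after IL-13, beside 16.4% and 7.76% of all genes, so that the count after IL-13 was near the share over all genes. In macrophages, 4 entries were called after IL-4, 1 higher and 3 lower, where 14% of all genes were called, and 2 after IL-13, 1 higher and 1 lower, where 4.19% were. The median log2 fold change over the 11 entries was 0.09 and -0.06 in microglia and -0.49 and -0.13 in macrophages, for IL-4 and IL-13 respectively, beside -0.06 and 0 in microglia and 0.02 and 0 in macrophages over all genes tested.

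**Figure D3:**
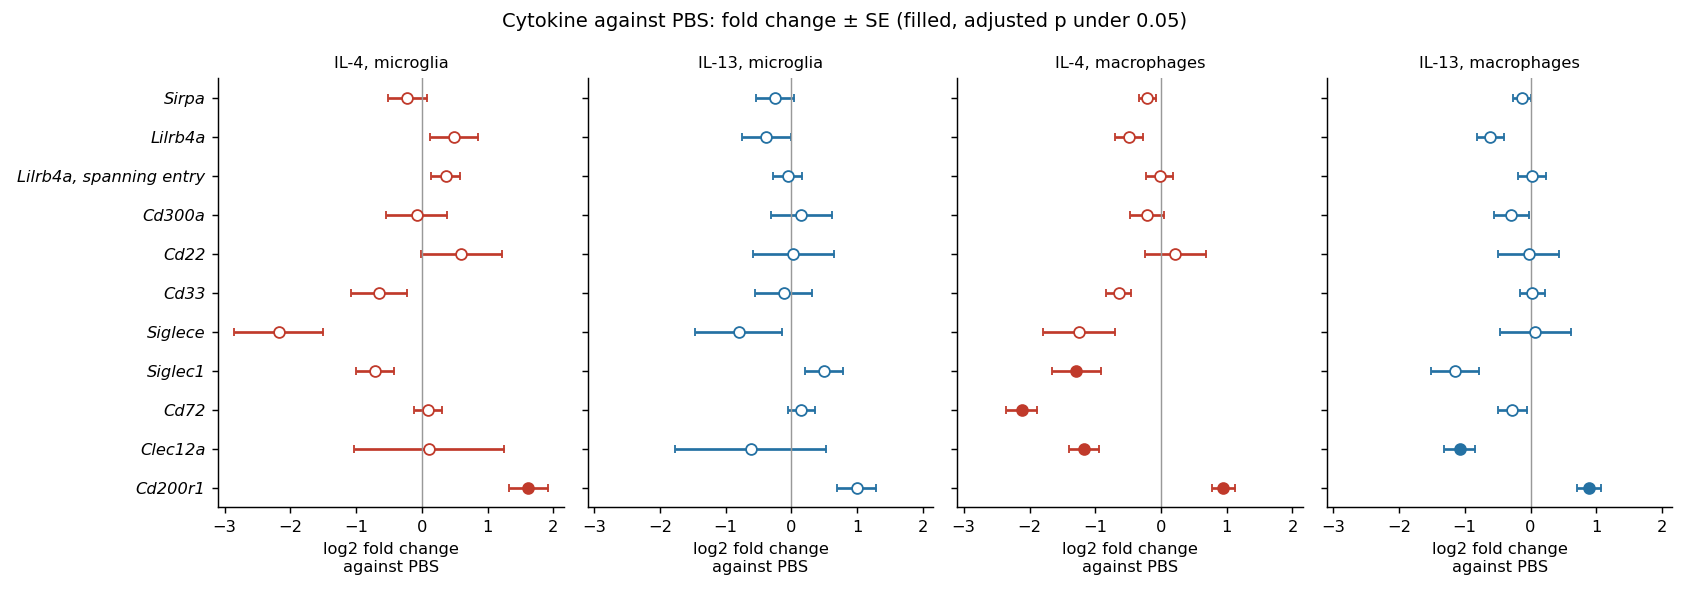
Change against PBS (log2 fold change ± SE) of each entry after IL-4 (red) and IL-13 (blue) in microglia and macrophages, filled where the adjusted p is under 0.05. Cd200r1 is to the right of 0 in all 4 panels, and Cd72 is far to the left with IL-4 in macrophages only, at -2.12.

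Cd200r1 (ENSMUSG00000022667.17, chr16:44765736-44794978), the receptor for CD200, was the receptor that rose. In microglia, it had 10.6, 13.6 and 17.6 CPM with PBS, 29.6, 54.2 and 42.4 CPM with IL-4 and 21.9, 28.4 and 32.8 CPM with IL-13. Every library of either cytokine was above every PBS library. The rise with IL-4 was 3.07-fold (log2 fold change 1.62 ± 0.30, adjusted p = 0.0268, edgeR), and the IL-13 value was 0.99 ± 0.29 with an adjusted p of 0.356. Some macrophage markers also rose in the IL-4 microglia. Of 5 markers of border-associated macrophages, 3 rose (median log2 fold change 1.53), their sum going from 138 to 284 CPM with PBS to 503 to 1020 CPM. Of the 7 monocyte-derived macrophage markers, 2 rose (median 0.65), and of the 8 microglia markers, 2 fell (median -1.49). Not all macrophage markers were higher with IL-4. F13a1, a monocyte-derived macrophage marker, had 105 to 263 CPM with PBS and 74.9 to 94.4 CPM with IL-4. Lyve1, a border-associated marker, had 7.21 to 15.2 CPM with PBS and 6.02 to 15.4 CPM with IL-4. The sum of the 7 fibroblast and pericyte markers was 2090 to 3020 CPM in PBS microglia and 191 to 1430 CPM in IL-4 microglia, without overlap (median -1.60). In IL-13 microglia, the sum of the border-associated markers was 474 to 789 CPM, and 1 of the 5 rose (median 1.41). There, 0 of the 8 microglia markers were called (median -0.95). The part of all these markers in the rise of Cd200r1 was not tested. The call with IL-4 needed nearly all mice, since the adjusted p was 0.132, 0.105 and 0.0715 without PBS mouse 1, 2 or 3, and 0.0692 and 0.0707 without IL-4 mouse 9 or 10, with log2 fold changes between 1.39 and 1.82.

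In macrophages, Cd200r1 was at a higher level to begin with. It had 70.1, 73.5 and 72.9 CPM with PBS, 113, 178 and 127 CPM with IL-4 and 118, 156 and 125 CPM with IL-13, again without overlap between PBS and either cytokine. It rose 1.93-fold with IL-4 (0.95 ± 0.18, adjusted p = 0.0057, edgeR) and 1.85-fold with IL-13 (0.89 ± 0.18, adjusted p = 0.0209). The sum of the 5 markers of border-associated macrophages was 466 to 957 CPM with PBS, 1640 to 3200 CPM with IL-4 and 2120 to 3790 CPM with IL-13, and 3 of the 5 rose with each cytokine (median log2 fold changes 1.88 and 2.09). Mrc1, of this list, had 49.5 to 61.8 CPM with PBS and 1110 to 2010 CPM with IL-4. With IL-4, Pf4 and Lyve1 of the same list went the other way. Pf4 had 349 to 828 CPM with PBS and 122 to 342 CPM with IL-4. Lyve1 had 1.92 to 3.68 CPM with PBS and 0 to 0.809 CPM with IL-4. The part of these markers in the macrophage rise of Cd200r1 was not tested. The IL-4 call was kept in each of 12 alternatives, with adjusted p of up to 0.033. The IL-13 call was lost without PBS mouse 1, 2 or 3 (adjusted p = 0.0959, 0.0798 and 0.1), without IL-13 mouse 7 (0.0664) and in 1 model of the 18 libraries (0.0898). The difference of the IL-4 response between the cell types was 0.64 ± 0.34 (adjusted p = 0.478) and that of the IL-13 response 0.11 ± 0.34 (adjusted p = 1), so that neither was called. Cd200r1 was lower in microglia than in macrophages under each treatment, with log2 fold changes of -2.40 with PBS, -1.70 with IL-4 and -2.24 with IL-13.

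The partners of Cd200r1 were read from fixed lists of ligands and signalling genes. Dok2, the adaptor of Cd200r1, rose in IL-4 microglia (1.98 ± 0.29, adjusted p = 0.0108, edgeR), in IL-4 macrophages (1.70 ± 0.29) and in IL-13 macrophages (1.25 ± 0.29, adjusted p = 0.0413). It was the 1 of 12 signalling partners that rose in each of these 3 comparisons. Cd200, the ligand, was higher in microglia than in macrophages by 4.39 ± 0.30 with PBS, 5.85 ± 0.55 with IL-4 and 6.36 ± 0.38 with IL-13 on the log2 scale. In the same comparisons, 7 of 7 fibroblast and pericyte markers (median log2 fold changes 8.63, 10.43 and 9.68) and 2 of 2 astrocyte markers tested (3.34, 4.42 and 4.31) were also higher in microglia libraries, and their part in the Cd200 level was not tested. Cd47, the ligand of Sirpa, was lower in microglia (-1.07, -1.02 and -1.06 in the same order), and rose with IL-4 in macrophages by 0.73 ± 0.17.

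Among the calls against PBS, Cd72 had the largest fall, in IL-4 macrophages. There it had 8.13, 7.88 and 8.73 CPM in mice 8, 9 and 10, against 36.1, 30.6 and 41.1 CPM with PBS and 32.6, 36.9 and 19.3 CPM with IL-13 in mice 5, 6 and 7. The 3 IL-4 libraries lay close together and below all others. The fall was 4.36-fold (-2.12 ± 0.23, adjusted p = 0.000346, edgeR), and in 12 alternatives the adjusted p was at most 0.00286. With IL-13, the change was -0.28 ± 0.22 (adjusted p = 0.576). Between the cytokines, Cd72 was the 1 of 11 entries called in macrophages, where 0.25% of all genes were called, and it was 3.60-fold lower with IL-4 (-1.85 ± 0.23, adjusted p = 0.0201). That call was lost without IL-13 mouse 5 (adjusted p = 0.0596), without IL-4 mouse 8, 9 or 10 (0.0652, 0.0506 and 0.0998) and with only the 6 libraries compared (0.0839).

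In microglia, Cd72 had 98.5 to 133 CPM with IL-4 and 103 to 166 CPM with IL-13, which overlapped the 107 to 125 CPM with PBS. The difference between the cell types in the IL-4 response was 2.18 ± 0.32 (adjusted p = 0.00476, edgeR), with 0.992% of all genes called in that test and Cd72 the 1 of 11 entries. Without PBS mouse 3 it was 2.03, with an adjusted p of 0.0537. In the test of the IL-13 response, 0 of the 11 entries and 0.0242% of all genes were called. There, 1 entry had an unadjusted p under 0.05, beside 5.83% of all genes, and DESeq2 called 0 entries and 1.05% of all genes. Sema4d, the ligand of Cd72, fell in macrophages with IL-4 (-3.08 ± 0.18, adjusted p = 9.69e-06) and with IL-13 (-2.49 ± 0.18).

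Markers of microglia also fell in the IL-4 macrophages. The sum of the 8 markers was 2620 to 3740 CPM with PBS, 1060 to 2260 CPM with IL-13 and 465 to 849 CPM with IL-4, and 8 of 8 of them fell with IL-4 while 2 of 8 fell with IL-13. With IL-13 the sum was below PBS without overlap, while Cd72 was not called. In IL-13 mice 5, 6 and 7, the sum was 2260, 1060 and 1340 CPM and Cd72 had 32.6, 36.9 and 19.3 CPM. The part of the microglia markers in the fall of Cd72 was not tested. The sum of the 6 B cell markers in macrophages was 12.2 to 24.6 CPM with PBS, 10.5 to 18.8 CPM with IL-13 and 4.75 to 7.28 CPM with IL-4.

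**Figure D4:**
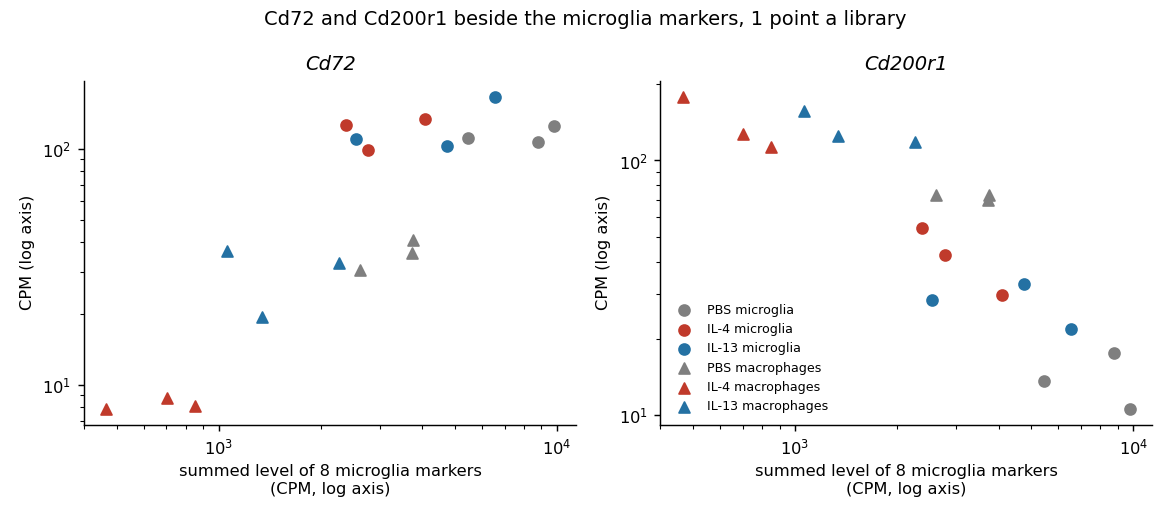
Level of Cd72 (left) and Cd200r1 (right) against the summed level of 8 microglia markers, both in CPM on log axes, 1 point a library (circles microglia, triangles macrophages). The IL-4 macrophages have both the lowest Cd72, 7.88 to 8.73 CPM, and the lowest marker sums, 465 to 849 CPM, whereas IL-13 macrophages with sums of 1060 to 2260 CPM have 19.3 to 36.9 CPM of Cd72.

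Clec12a fell in macrophages with both cytokines. Its levels were 43.5, 59.8 and 66.9 CPM with PBS, 20.9, 34.1 and 20.5 CPM in IL-4 mice 8, 9 and 10, and 24.1, 31.5 and 24.6 CPM in IL-13 mice 5, 6 and 7. No cytokine library reached the lowest PBS library. The change was -1.17 ± 0.23 with IL-4 (adjusted p = 0.00859, edgeR) and -1.08 ± 0.23 with IL-13 (adjusted p = 0.031). The IL-4 call was kept in 11 of 12 alternatives. In the model of all 18 libraries, the adjusted p was 0.519. These include the microglia library with 1 count, whose part in the lost call was not tested. The IL-13 call was lost in that model (0.806) and without PBS mouse 2 or 3 (0.106 and 0.138) or IL-13 mouse 5 or 7 (0.104 and 0.113). Neutrophils also use Clec12a, and the sum of 9 neutrophil markers in macrophages was 1000 to 1610 CPM with PBS, 247 to 854 CPM with IL-4 and 528 to 3050 CPM with IL-13. The gate was set to leave these cells out, and their markers were still counted in the macrophage libraries. The part of neutrophils in the fall was not tested.

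Siglec1 was lower in macrophages with both cytokines, and the fall passed the test with IL-4. It had 115, 135 and 152 CPM with PBS, 73.5, 34.8 and 55.6 CPM with IL-4 and 74.3, 27.9 and 77.7 CPM with IL-13, so that neither cytokine overlapped PBS. The change was -1.29 ± 0.37 with IL-4 (adjusted p = 0.0443, edgeR) and -1.15 ± 0.37 with IL-13 (adjusted p = 0.129, or 0.022 with DESeq2 and 0.0252 with all genes that had any count). Without IL-13 mouse 6, the lowest library, the IL-13 value was -0.80 (adjusted p = 0.164). The IL-4 call was lost without PBS mouse 1, 2 or 3 (0.073, 0.101 and 0.125) and without IL-4 mouse 9 or 10 (0.109 and 0.123). Siglec1 is known as an interferon-inducible gene. Of 10 interferon-stimulated genes, 4 fell with IL-4 in macrophages and 2 with IL-13, where 14% and 4.19% of all genes were called in either direction, among them Ifit3 (-3.26 and -3.04) and Ifit2 (-2.81 and -2.39). Their median was -1.77 and -1.82. In microglia, their median was -0.15 with IL-4 and -0.77 with IL-13 against PBS, and 0.84 for IL-4 against IL-13, where Siglec1 had -0.72, 0.50 and -1.21. The part of interferon in the values of Siglec1 was not tested. In microglia, Siglec1 had 18.7 to 35.9 CPM with PBS, 13.4 to 21.6 CPM with IL-4 and 32.9 to 46.3 CPM with IL-13. There, IL-4 and IL-13 did not overlap. The difference of -1.21 ± 0.30 between them had an adjusted p of 0.225 in edgeR and 0.00798 in DESeq2. In that comparison, 0 of the 11 entries and 0.0385% of all genes were called by edgeR, and 1 entry and 4.44% of all genes by DESeq2. An unadjusted p under 0.05 was found for 2 entries and 11.4% of all genes. The IL-4 value against PBS was -0.72 ± 0.29 (adjusted p = 0.265). The response of Siglec1 to IL-13 differed between the cell types by 1.65 ± 0.50 (adjusted p = 0.483).

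The other sialic acid receptors, Cd33, Siglece and Cd22, were not called after either cytokine in either cell type. Cd33 had 123, 78.3 and 97.2 CPM in PBS macrophages and 70.8, 67.4 and 54.1 CPM in IL-4 macrophages, without overlap. The difference of -0.64 ± 0.19 had an adjusted p of 0.0526 in edgeR, and 0.0257 in DESeq2 and 0.0336 with all genes that had any count. Siglece, which holds 1 ITIM, was low throughout, with at most 24.7 CPM. In microglia it had 13.7, 7.48 and 9.88 CPM with PBS and 3.60, 1.89 and 1.22 CPM with IL-4, which did not overlap. The difference was -2.18 ± 0.68, with an adjusted p of 0.154 in edgeR and 0.0115 in DESeq2. In macrophages, Siglece had 11.3 to 13 CPM with PBS, 2.79 to 8.95 CPM with IL-4 and 6.48 to 24.7 CPM with IL-13 (IL-4 against PBS -1.25 ± 0.55, adjusted p = 0.174). The highest macrophage library was IL-13 mouse 6, and the change with IL-13 was 0.07 ± 0.54 with that mouse and -0.87 without it (adjusted p = 0.969 and 0.337). Without IL-4 mouse 9, the change with IL-4 was -1.94 (adjusted p = 0.0494). These libraries also had the highest neutrophil sums of their groups, 3050 and 854 CPM, whose part in the values of Siglece was not tested. Cd22, the receptor with 4 ITIMs, ranged from 15.5 to 63.3 CPM over the 9 macrophage libraries, and its groups overlapped in both cell types.

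Sirpa, Cd300a and Lilrb4a were not called after either cytokine. In macrophages, Sirpa lay between 768 and 1020 CPM, with log2 fold changes of -0.21 ± 0.13 with IL-4 and -0.13 ± 0.13 with IL-13 (adjusted p = 0.354 and 0.694, edgeR), and its IL-4 libraries did not overlap PBS. The Lilrb4a entry had 314 to 353 CPM with IL-4 and 248 to 357 CPM with IL-13, both below the 368 to 617 CPM with PBS, with log2 fold changes of -0.49 ± 0.21 and -0.61 ± 0.21 (adjusted p = 0.151 and 0.149). In microglia, it changed by 0.49 ± 0.37 and -0.38 ± 0.37. Cd300a had 137 to 168 CPM with PBS, 91.3 to 178 CPM with IL-4 and 91.7 to 167 CPM with IL-13. Lyn, a kinase that can phosphorylate such receptors, fell in IL-4 macrophages (-0.76 ± 0.15). Of the 12 signalling partners, 4 fell and 1 rose there, where 14% of all genes were called.

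Lilrb4a, a receptor with 2 ITIMs also known as gp49B, lies on chromosome 10 next to its near-identical relative Lilr4b. The coding sequences of the pair shared 871 of 907 aligned bases (96%), and the coding sequence of Lilr4b had no ITIM match in its last 160 residues. The table holds 3 overlapping entries there: Lilr4b (chr10:51480632-51486703), Lilrb4a (chr10:51490956-51496611) and a second entry under the symbol Lilrb4a that spans both (chr10:51480612-51496613), named Gm49339 in GENCODE M21. Reads were divided among them by estimation, so that the value of each entry alone is uncertain. In PBS macrophages, Lilrb4a had 617, 412 and 368 CPM, the spanning entry 426, 610 and 619 CPM and Lilr4b 881, 665 and 668 CPM. Mouse 1 was thus highest for Lilrb4a and Lilr4b and lowest for the spanning entry. The sum of the 3 entries varied less, with 1650 to 1920 CPM. In a fit on that sum, chosen after the values were seen, the locus was lower in microglia, with log2 fold changes of -1.93 ± 0.16 with PBS, -1.11 ± 0.21 with IL-4 and -1.62 ± 0.23 with IL-13 (adjusted p = 3.84e-05, 0.00725 and 0.00218, edgeR). Against PBS, the sum changed by 0.47 ± 0.22 with IL-4 in microglia (adjusted p = 0.335) and by -0.31 ± 0.17 in macrophages (adjusted p = 0.27), and neither was called.

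**Figure D5:**
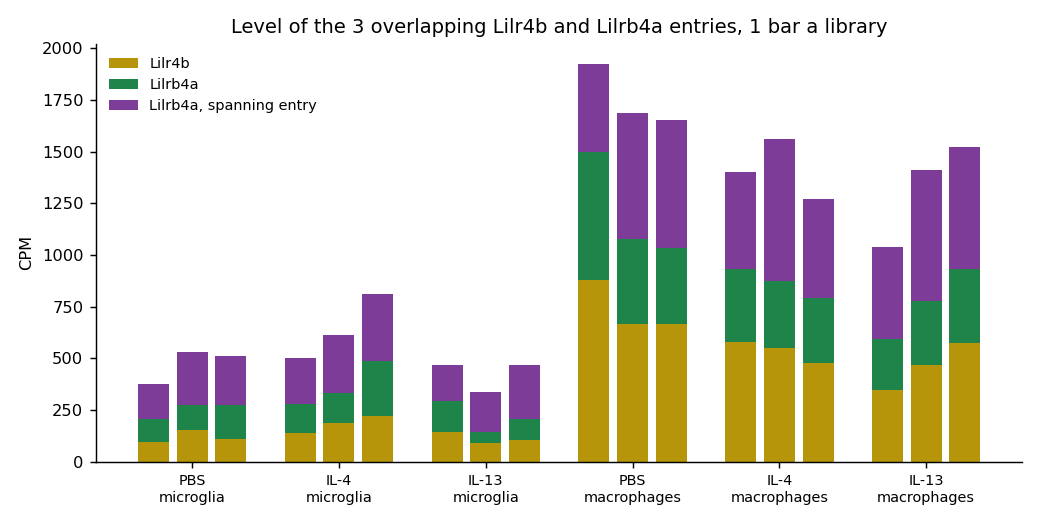
Level in CPM of the 3 overlapping entries of the Lilr4b and Lilrb4a locus, stacked, 1 bar a library in 6 groups. The bars reach 1650 to 1920 CPM in PBS macrophages and 378 to 529 CPM in PBS microglia, while the split among the entries differs between libraries of a group.

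Other inhibitory receptors, a list of 12 genes outside the 10, gave a wider picture. Fcgr2b, the inhibitory Fc receptor, rose in all 4 comparisons with PBS, by 1.95 ± 0.14 in IL-4 microglia, 1.79 ± 0.14 in IL-13 microglia, 1.64 ± 0.21 in IL-4 macrophages and 1.61 ± 0.21 in IL-13 macrophages. Pecam1, an adhesion receptor with ITIMs, rose in macrophages by 4.70 ± 0.34 with IL-4 and 4.02 ± 0.33 with IL-13. In IL-4 macrophages, where 14% of all genes were called, 2 of the 12 rose and 3 fell, with a median log2 fold change of -0.11. In IL-4 microglia, where 2.22% were called, 2 rose and 1 fell, with a median of 0.10. Among activating relatives and adaptors, 1 rose and 3 fell of 12 tested in IL-4 macrophages, among them Siglech, itself a microglia marker (-4.16 ± 0.67). Of the sialic acid enzymes, St3gal6 and St3gal5, which attach sialic acid to sugar chains, were the 2 of 14 that fell there (-3.95 ± 0.42 and -2.76 ± 0.44), a share near the 14% of all genes called. St3gal6 was also higher in microglia than in macrophages with PBS (3.38 ± 0.30), and the 8 microglia markers fell in the same IL-4 macrophages.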

How the data were processed

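Low-input RNA-seq (SMART-seq2) of sorted microglia and macrophages was analysed in 18 libraries from 9 mice. The authors mapped reads to GRCm38 with STAR 2.5.3a and deposited RSEM 1.3.0 expected counts per gene, without normalization. The annotation release was not given in the sources used here. The protocol keeps no strand and no molecular identifiers, and RSEM divides reads shared by several genes between them. Expected counts were used as whole numbers, and 0 count columns lacked a sample.

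Groups followed the labels. Each cytokine comparison was fitted in the 9 libraries of a cell type, cell types in the 6 libraries of a treatment, and the difference in response in all 18 libraries, with edgeR 4.0.16 (filterByExpr, TMM, glmQLFit, glmQLFTest; R 4.3.3) and Benjamini-Hochberg adjustment over all genes tested, with a threshold of 0.05. SE was the log2 fold change divided by the square root of F. The scripts were tested on simulated data. Alternatives were DESeq2 1.42.0, its size factors, 2 other filters on low counts (any count, or at least 10 counts in every library), other sets of libraries, the mouse as a block and each mouse left out. Numbers pair microglia and macrophages because the labels name the same mouse for both. Deviations from group means of a mouse's 2 libraries correlated at 0.049 to 0.205 across genes, which are not independent. Mice of different treatments share no number. Each library came from 1 mouse.

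CPM used TMM factors over 18 libraries. Exon lengths, positions and coding sequences came from GENCODE M21. Genes and lists were chosen with earlier results of these data known. All 10 genes are named, with Lilr4b. From 6 pathway lists (signalling partners, ligands, other inhibitory receptors, activating relatives and adaptors, sialic acid metabolism, interferon-stimulated genes), at most the 3 called genes with the largest change per comparison could be named.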

Additional observations from a re-analysis of the deposited data

Results flagged for a closer look

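The response of Cd72 to IL-4 differed between the cell types by 2.18 ± 0.32 on the log2 scale (adjusted p = 0.00476 in edgeR's test of the interaction, n = 3 mice per group). Cd72 was at 7.88 to 8.73 CPM in the 3 IL-4 macrophage libraries and at 30.6 to 41.1 CPM in the 3 PBS macrophage libraries, whereas in microglia the IL-4 libraries (98.5 to 133 CPM) overlapped the PBS libraries (107 to 125 CPM). Over 11 alternatives, the difference was between 2.03 and 2.35, with an adjusted p of 0.0537 without PBS mouse 3 and below the threshold in the others. Groups of 3 libraries were too small for a test of single outlying libraries.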

How the results depend on the processing

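Of 547 values of single receptors under the alternatives, 478 kept their direction and their side of the threshold, 44 lost the call, 22 gained it and 3 changed sign, none of them called: the difference of the Cd200r1 response to IL-13 between the cell types (-0.03 without mouse 1 and -0.08 without mouse 7, with a range up to 0.30 over the mice left out) and the change of Siglece with IL-13 in macrophages (-0.87 without mouse 6, and up to 0.37 without another mouse). The 547 values covered the calls and other values chosen for the report, so that not all of them had a call to lose. DESeq2's size factors moved 0 of 53 values across the threshold. The number of the 11 entries called was 2 for IL-4 against PBS in microglia and 1 for IL-4 against IL-13 in microglia with DESeq2's Wald test (9.21% and 4.44% of all genes), 0 for IL-13 against PBS in macrophages in 1 model of the 18 libraries (1.55% of all genes), and 0 for IL-4 against IL-13 in macrophages with only the 6 libraries compared (0.054% of all genes). With each mouse left out in turn, the number called is given with the share of all genes called. For IL-4 against PBS in microglia, it was 0 to 1 (0.459% to 1.62%). In macrophages, it was 3 to 4 (7.39% to 11.4%) for IL-4 against PBS and 0 to 2 (1.41% to 3.76%) for IL-13 against PBS. Between the cytokines there, it was 0 to 1 (0.00713% to 0.163%). Between the cell types, it was 8 to 10 (28.9% to 34.5%) with PBS and 4 to 5 (12.9% to 18.3%) with IL-4. With IL-13, it was 3 to 10 (8.44% to 25.4%). In the test of the IL-4 response, it was 0 to 1 (0.105% to 0.629%). The replicate block, which pairs the 2 libraries of a mouse, covered 55 values of the 11 entries, gained 3 calls and lost 0. The 3 were Lilrb4a with IL-4 (adjusted p = 0.0488) and Sirpa and Cd22 with IL-13 (0.0252 for each), all between the cell types. No paired analysis was possible for the comparisons between treatments because no mouse is in more than 1 treatment. Over all alternatives, mice left out included, the number of all genes called was between 75 and 1465 for IL-4 against PBS in microglia, 22 and 404 for IL-13, 0 and 724 between the cytokines, 1041 and 2554, 199 and 1095, and 1 and 394 in macrophages, 4237 and 6930, 1798 and 4718, and 1197 and 5188 between the cell types with PBS, IL-4 and IL-13, and 18 and 762 and 0 and 179 for the IL-4 and IL-13 responses, against 345, 57, 6, 1900, 570, 34, 6014, 3174, 3710, 164 and 4 in the same order with the settings of the report. Siglece and Clec12a in microglia rested on the fewest reads, with as few as 45 counts and 1 count in a library. Large differences could also be missed. Siglece was 4.54-fold lower in IL-4 microglia than with PBS, without overlap, and was not called (adjusted p = 0.154, edgeR). In simulated data over all genes, 6.52% of 2-fold and 38.7% of 4-fold changes were recovered for IL-4 against PBS in microglia. In macrophages, 34% and 81.2% were.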
